A study of Homo sapiens with 12 samples.

Results

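The genes described here are 42 human genes of the lysosome: 17 soluble acid hydrolases, 4 activator or cargo proteins of its lumen, 9 membrane proteins and 12 subunits or accessory proteins of the vacuolar proton pump (V-ATPase). They were chosen by gene symbol from knowledge of the organelle, but with earlier results of these data known. The counts below are therefore a description and no independent test. The members make up 42 of the 32321 genes listed in any of the 4 deposited tables. All 42 were listed in both MOLM13 tables and 41 in both U937 tables; ATP6V0A1 was analysed in MOLM13 only. RNA sequencing was run on 12 libraries in 6 groups of 2 libraries, to follow how gene expression responds to loss of IGF2BP3, an RNA-binding protein, in acute myeloid leukemia (AML) cells. MOLM13, an AML line with monocytic features, had been given lentivirus with the control hairpin shNS or with shBP3-1 or shBP3-2 (here hairpin 1 and hairpin 2), which target IGF2BP3, and the labels give no time after infection. U937 BP3-mAID, a monocytic line whose IGF2BP3 carries a mini-auxin-inducible degron tag, was left untreated (NT) or held in 5-Ph-IAA, an auxin analogue that triggers degradation of the tagged protein, for 6 h or 24 h. All 3 U937 groups thus carry the tagged protein, no group received 5-Ph-IAA without the tag, and the labels do not say whether the line is 1 clone.

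Lysosomes degrade macromolecules with acid hydrolases that need activator proteins, a low luminal pH kept by the V-ATPase, and a membrane rich in heavily glycosylated proteins. Many of the hydrolases are sorted from the Golgi through mannose 6-phosphate receptors. Monocytes and macrophages are rich in lysosomes, and transcription of many lysosomal genes is driven by the MiT/TFE factors (TFEB, TFE3, MITF and TFEC), which bind E-box letters in promoters. In the labels and tables no protein, pH or enzyme activity is given: the measurements below are of RNA.

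Promoter windows from RefSeq (GRCh38.p14, 250 bases before to 50 bases after each start) were held for 32 of the 42 genes, all but ARSA, ASAH1, ATP6V1A, ATP6V1B2, ATP6V1C1, ATP6V1H, HEXA, LAMP2, PSAP and SGSH. The palindromic E-box CACGTG, which reads the same on both strands, was found in the windows of 9 of the 32 genes (28.1%) and in those of 8.77% of all 27305 genes in the table. Its longer form TCACGTGA, which contains the E-box, was found in 5 of the 32 (15.6%) and in 1.18% of all genes. Altogether 5 strings were searched on both strands while the windows were explored. TCACGTG was in 7 of the 32 genes (21.9%, against 4.49% of all genes), GTCACGTG in 6 (18.8%, against 2.93%) and TCACATG, a related form that shares no CACGTG, in 9 (28.1%, against 4.15%). These matches are a description of letters in a window and were given no test. The windows of the 5 genes with TCACGTGA are shown from 200 bases before the start through the first 10 transcribed bases, because they hold the letters these factors are known to bind; capitals mark CACGTG or TCACGTGA.
LAMP1 (chr13:113297039-113297248, plus strand): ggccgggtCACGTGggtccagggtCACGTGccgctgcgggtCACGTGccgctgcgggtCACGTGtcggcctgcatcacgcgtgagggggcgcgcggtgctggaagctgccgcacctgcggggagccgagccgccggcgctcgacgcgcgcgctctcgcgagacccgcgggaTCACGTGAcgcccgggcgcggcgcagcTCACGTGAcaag
GAA (chr17:80101381-80101590, plus strand): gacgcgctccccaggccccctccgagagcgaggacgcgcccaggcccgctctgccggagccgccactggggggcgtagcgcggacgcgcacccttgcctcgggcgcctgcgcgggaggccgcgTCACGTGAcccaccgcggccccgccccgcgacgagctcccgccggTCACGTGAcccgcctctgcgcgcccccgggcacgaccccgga
MCOLN1 (chr19:7522424-7522633, plus strand): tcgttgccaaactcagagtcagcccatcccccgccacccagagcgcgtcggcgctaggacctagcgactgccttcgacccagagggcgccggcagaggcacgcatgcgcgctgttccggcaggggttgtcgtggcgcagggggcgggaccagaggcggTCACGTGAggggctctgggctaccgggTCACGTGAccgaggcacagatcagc
ATP6V0D1 (chr16:67481148-67481357, minus strand): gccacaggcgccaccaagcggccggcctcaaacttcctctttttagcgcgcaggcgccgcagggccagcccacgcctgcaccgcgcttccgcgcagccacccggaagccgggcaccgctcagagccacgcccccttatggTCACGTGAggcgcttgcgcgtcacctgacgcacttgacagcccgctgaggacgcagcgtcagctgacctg
ATP6V1G1 (chr9:114587569-114587778, plus strand): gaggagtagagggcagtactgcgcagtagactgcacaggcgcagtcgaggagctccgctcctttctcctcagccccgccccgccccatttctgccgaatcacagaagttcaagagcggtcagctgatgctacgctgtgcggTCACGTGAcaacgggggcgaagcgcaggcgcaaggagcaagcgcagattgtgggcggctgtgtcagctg
In LAMP1 the shown stretch holds 6 E-boxes, of which the pair nearest the start are in the longer form, and GAA and MCOLN1 hold the longer form at both of their E-boxes. All 5 genes were higher with both hairpins, as were 37 of the 42 members. After 24 h of 5-Ph-IAA LAMP1 and GAA were lower and MCOLN1, ATP6V0D1 and ATP6V1G1 were not called, where 17 of 37 tested members were lower. These counts lie near those of the members as a whole and are no result about genes with these letters.

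The deposited tables hold for each gene a mean over the 4 libraries of a comparison and no value per library, so group means are given and their spread is carried by the standard error (SE) recovered from the authors' p. The mean normalised reads summed to 2.25e+07 in the hairpin 1 table, 2.2e+07 for hairpin 2, 1.18e+07 in the 6 h table and 1.24e+07 in the 24 h table, and the U937 comparisons are the shallower ones. IGF2BP3 mRNA stood at 40.0% of control with hairpin 1 and 48.8% with hairpin 2. At 6 h it stood at 83.1% (adjusted p 0.168) and at 24 h at 111% (adjusted p 0.254), and the degron acts on protein, so mRNA does not check the U937 labels. The labelled myeloid lines expressed SPI1, CEBPA and CD33 in their controls, while CD14 and MPO were near 0 in U937, with NT means under 1. Some 43.37% of CEBPA exon bases are shared with other annotated genes on the other strand.

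With either hairpin the lysosomal genes rose almost throughout, and none was called lower. With hairpin 1, 38 of the 40 members tested were higher at an adjusted p under 0.05, the threshold used throughout, and 0 were lower (also 0 at an unadjusted p under 0.05). In the same comparison 17.7% of all 16282 tested genes were higher and 16% lower. Hairpin 2 gave 38 higher and 0 lower of 42 tested (0 lower unadjusted), where 19.4% of all tested genes were higher and 22.1% lower. The median log2 fold change of the tested members was 0.73 with hairpin 1 and 1.05 with hairpin 2, against -0.01 and 0.02 over all tested genes of the authors' deposited tables. Called increases of at least 2-fold were seen for 13 members with hairpin 1 and 19 with hairpin 2, where 5.14% and 8.89% of all tested genes passed that cut. Most members are well expressed, and well expressed genes are called more often, so the shares were also taken over genes whose mean reached 500 reads. Of these, 26.6% were higher and 24.8% lower with hairpin 1, against 30 higher and 0 lower of 31 such members. For hairpin 2 the figures were 29.1% higher and 43% lower, against 32 higher and 0 lower of 33. These well expressed genes had a median log2 fold change of -0.12 with hairpin 2, so relative to them the members' median was 1.17. Both hairpins were compared with the same control libraries, so the 37 members higher with both are a count of calls and no replication. In bulk RNA, a change in the share of cells of one type and a change of RNA per cell cannot be told apart.

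After degradation of IGF2BP3 in U937 the same genes divided, and more were lower than higher by 24 h. At 6 h, 11 of 37 tested members were higher and 8 lower, where 10.9% of all 13940 tested genes were higher and 12.3% lower. Above the mean of 500 reads these shares were 20.5% and 21.6%, beside 10 higher and 7 lower of 30 such members. The lower share of these 30 members (23.3%) was thus near that of other well expressed genes. At 24 h, 5 of 37 were higher and 17 lower, where 18.9% of all 16104 tested genes were higher and 19.9% lower. Above it, 31.7% were higher and 33.7% lower at 24 h, against 4 higher and 17 lower of 31 such members. The members' median log2 fold change was 0.04 at 6 h and -0.20 at 24 h. Not tested by the authors were CD68 and ATP6V0C with hairpin 1, and SGSH, ACP5, CD68 and ATP6V0C at both times in U937.

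**Figure D1:**
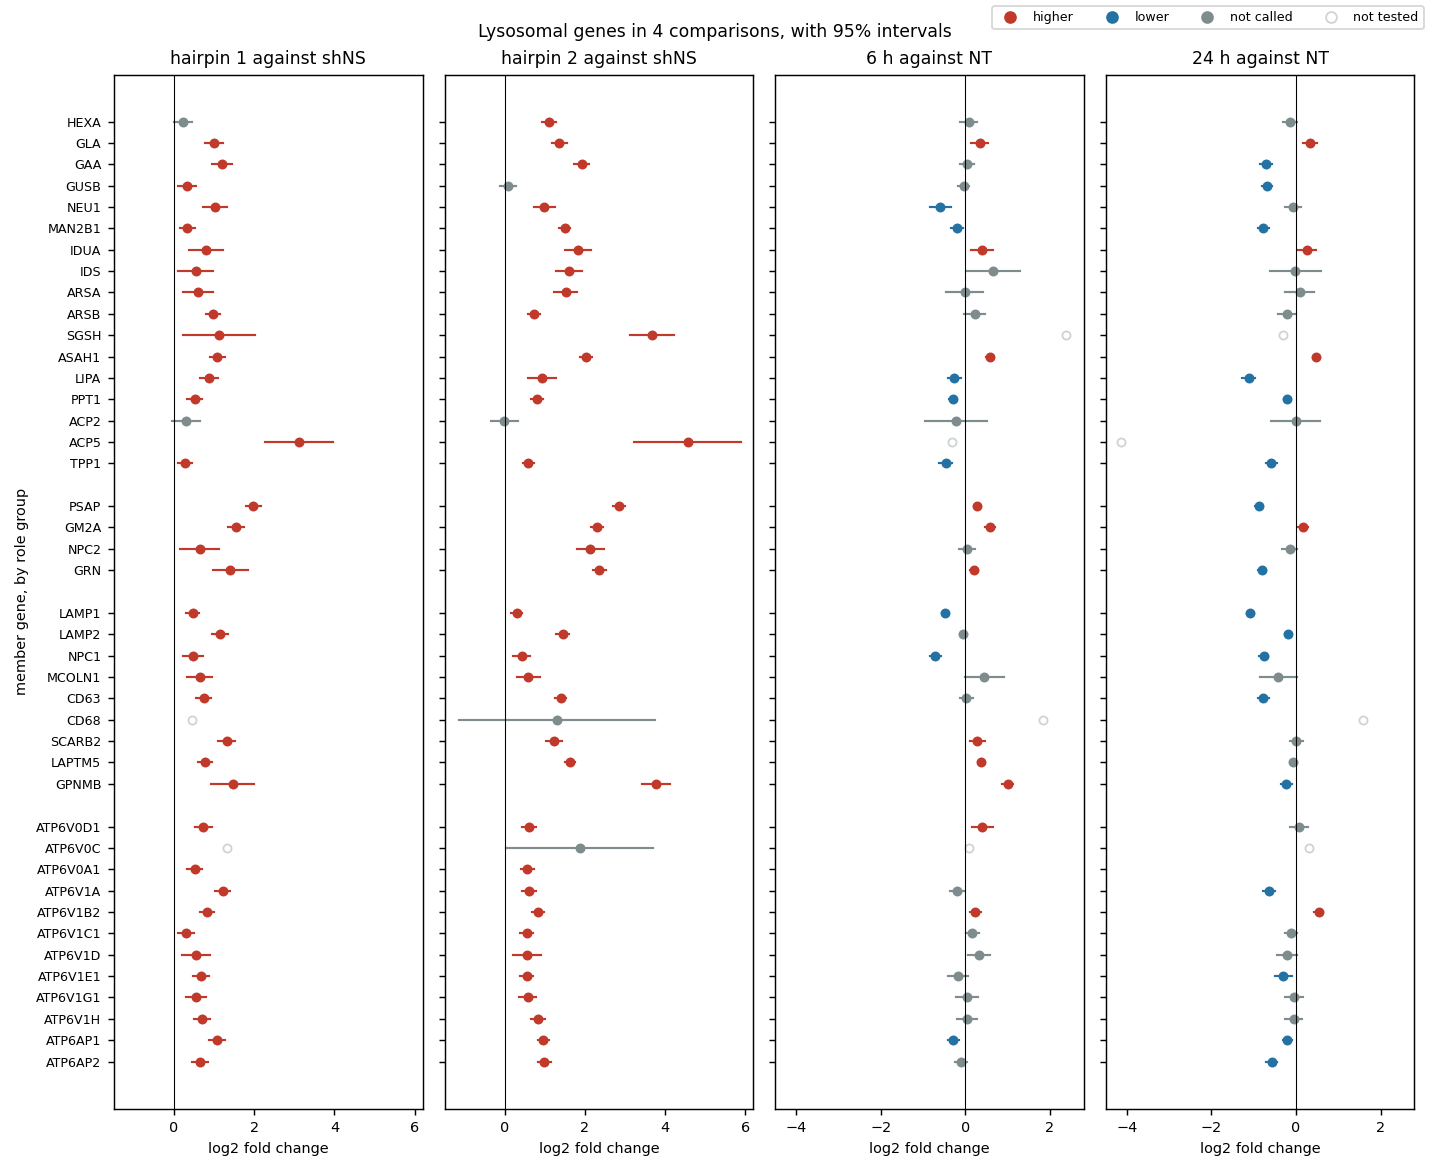
Log2 fold change of each member (rows, grouped by role in the order soluble hydrolases, activators and soluble cargo, membrane proteins, V-ATPase) in the 4 comparisons with control; points are the authors' deposited values, bars are 95% intervals recovered from their p-values, and colour gives the call. All called members lie right of 0 with either hairpin, while at 24 h 17 lie left of it and 5 right.

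**Figure D2:**
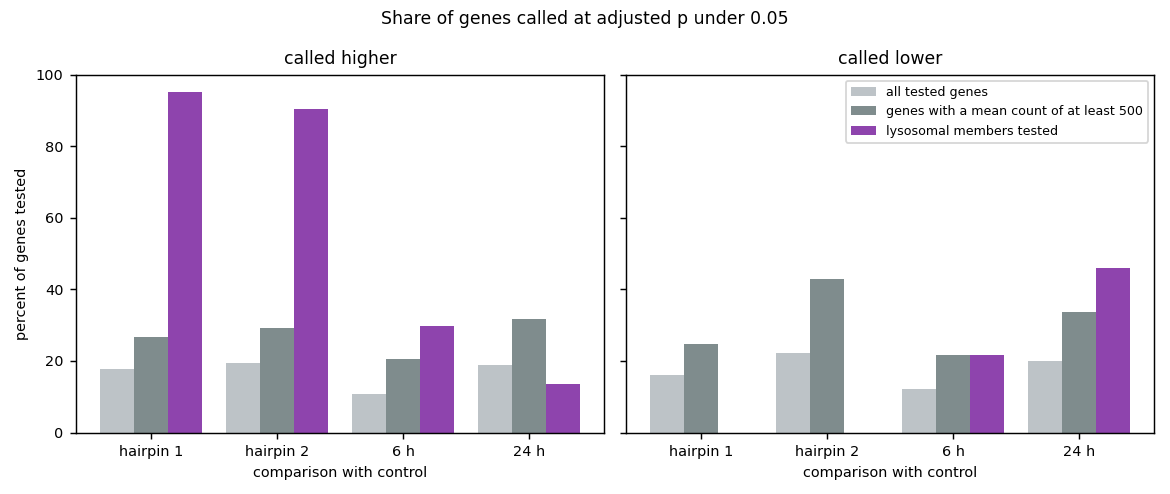
Percent of tested genes called higher (left) or lower (right) at an adjusted p under 0.05 in each comparison, for all tested genes, for genes whose mean reached 500 reads and for the lysosomal members. Members called higher make up 95% and 90.5% of those tested with the hairpins, 29.7% at 6 h and 13.5% at 24 h.

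Summed over the members, the lysosomal transcripts took 0.353% of normalised reads in MOLM13 controls, 0.737% with hairpin 1 and 1.09% with hairpin 2. In U937 they took 0.565% without treatment, 0.617% at 6 h and 0.481% at 24 h. PSAP alone accounted for 0.0499% of reads in MOLM13 controls, 0.197% with hairpin 1 and 0.361% with hairpin 2, so it held a large part of the rise in the sum.

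The activators and soluble cargo changed most among the role groups by median with each hairpin, at 1.47 and 2.33 on the log2 scale. PSAP encodes prosaposin, the precursor of the saposins that present sphingolipids to their hydrolases. Its group mean rose from 11289 to 44313 normalised reads with hairpin 1 and from 11042 to 79121 with hairpin 2, or 3.93-fold and 7.17-fold. In U937 it went from 4300 to 5241 at 6 h and from 4528 to 2456 at 24 h. PSAP therefore rose at 6 h (log2 fold change 0.29, SE 0.0439, adjusted p 2e-09 in the authors' deposited table) and fell at 24 h (-0.88, SE 0.0449, adjusted p 6.4e-84). GRN encodes progranulin, a secreted and lysosomal glycoprotein that is cut into granulins. GRN showed the same order: 5002 to 13174 with hairpin 1, 4894 to 25183 with hairpin 2, 4390.5 to 5077 at 6 h and 4624 to 2643 at 24 h. The rise with hairpin 1 carried an SE of 0.22 on the log2 scale, where the median over genes whose mean reached 1000 reads was 0.105. The decrease at 24 h was to 57.2% of control (adjusted p 2.9e-64 in the authors' deposited table). GM2A, the activator that lifts GM2 ganglioside to β-hexosaminidase, rose in all 4 comparisons. Its group mean went from 1382 to 4027 with hairpin 1, 1352 to 6660 with hairpin 2, 1945 to 2916 at 6 h and 2047 to 2290 at 24 h. The 24 h change of GM2A was small, 1.12-fold (adjusted p 0.014 in the authors' deposited table). NPC2, the soluble protein that passes cholesterol to NPC1, rose from 141 to 220 with hairpin 1 (adjusted p 0.031) and from 138 to 606 with hairpin 2 (2.2e-34). In U937 NPC2 had log2 fold changes of 0.03 at 6 h and -0.15 at 24 h in the authors' deposited tables and was called at neither time (adjusted p 0.87 and 0.16).

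**Figure D3:**
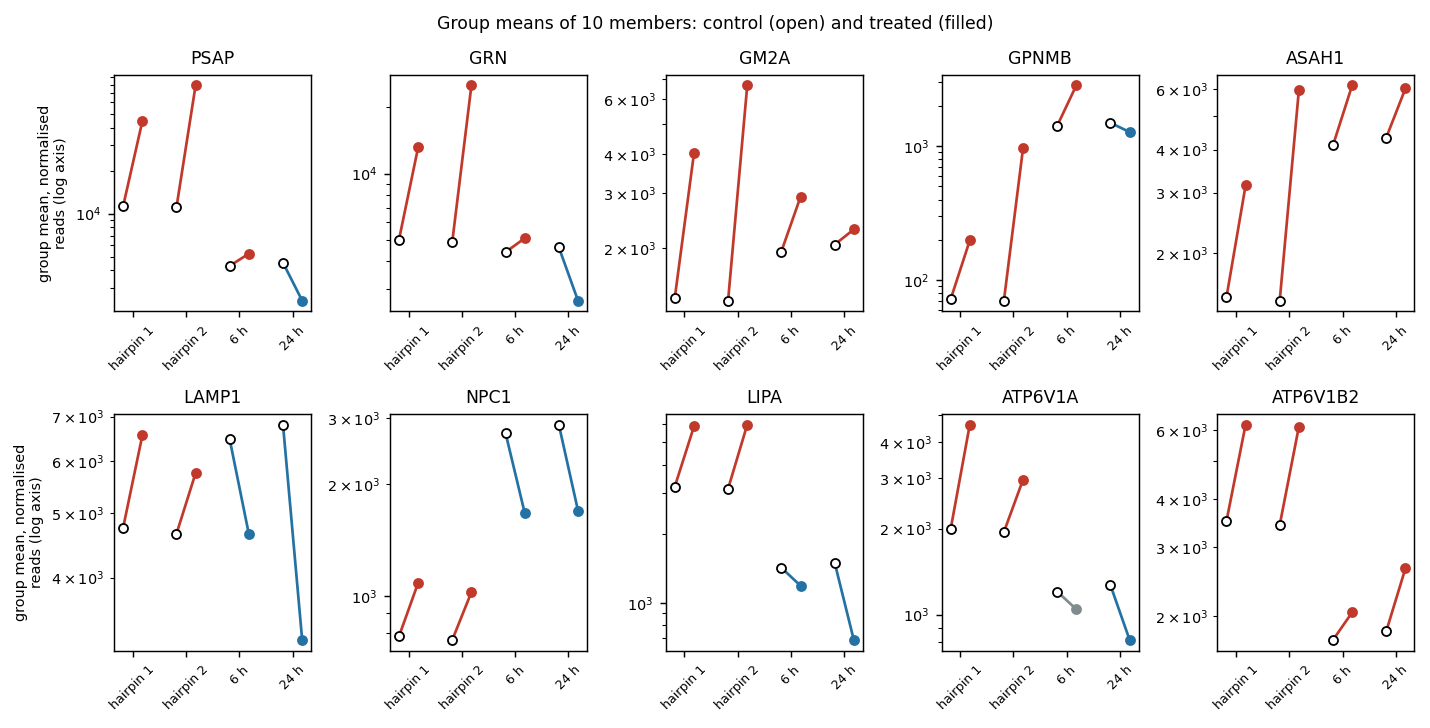
Group means of 10 members in normalised reads (log axes that differ between panels) for each comparison, the control as an open and the treated group as a filled point, red for higher, blue for lower and grey for not called. PSAP, GRN and GPNMB go up at 6 h and down at 24 h, GM2A, ASAH1 and ATP6V1B2 go up in all 4 comparisons, and LAMP1, NPC1 and LIPA go up with the hairpins and down at both times.

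Of the 17 soluble hydrolases, 15 rose with each hairpin and none fell, while in U937 3 rose and 5 fell at 6 h and 3 rose and 6 fell at 24 h, of 15 tested. Among all genes whose mean reached 500 reads, 20.5% were higher and 21.6% lower at 6 h, and 31.7% and 33.7% at 24 h. The 6 of 15 lower at 24 h thus lay near that share, and the counts at 6 h rest on few genes. The steepest hydrolase rises in MOLM13 were those of ACP5 with both hairpins and SGSH with hairpin 2, genes with few reads in the control. ACP5, the tartrate-resistant acid phosphatase of osteoclasts and macrophages, went from 16.7 to 144 normalised reads with hairpin 1 and from 16.3 to 387 with hairpin 2. SGSH, the sulfamidase of heparan sulfate breakdown, went from 29.3 to 63.4 with hairpin 1 (adjusted p 0.043 in the authors' deposited table) and from 28.6 to 366 with hairpin 2 (2.3e-38). Both genes were below a mean of 10 normalised reads in every U937 group and were not tested there. GAA, the acid α-glucosidase that clears glycogen, rose from 885 to 2016 and from 866 to 3281. In U937 GAA was 1402 against 1443 at 6 h and fell from 1476 to 901 at 24 h. ASAH1, the acid ceramidase, rose in all 4 comparisons, from 1488 to 3147 with hairpin 1, 1456 to 5961 with hairpin 2, 4115 to 6147 at 6 h and 4333 to 6019 at 24 h. Its U937 log2 fold changes were 0.58 (SE 0.0422) and 0.47 (SE 0.0392) in the authors' deposited tables. GLA, the α-galactosidase A that cleaves globotriaosylceramide, also rose in all 4, by 2.00-fold, 2.57-fold, 1.26-fold and 1.26-fold. IDUA, the α-L-iduronidase of glycosaminoglycan breakdown, rose 1.74-fold, 3.55-fold, 1.31-fold and 1.2-fold, the last with an adjusted p of 0.041 in the authors' deposited table. Some 13.35% of IDUA exon bases are shared with SLC26A1 on the other strand in GENCODE 29, and the counting is not stated to use strand, so its reads could be split with that gene.

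Hydrolases that rose with the hairpins and fell at both times in U937 were LIPA, MAN2B1, PPT1 and TPP1. LIPA, the acid lipase that frees cholesterol from its esters, had group means of 3208 and 5864 with hairpin 1, 3138 and 5972 with hairpin 2, 1422 and 1186 at 6 h and 1497 and 689 at 24 h, control first. The LIPA rise with hairpin 2 carried an SE of 0.18 on the log2 scale, where the median over genes whose mean reached 1000 reads was 0.088. At 24 h LIPA stood at 46% of control (log2 fold change -1.12, SE 0.0747, in the authors' deposited table). The LIPA annotation shares 4.07% of its exon bases on the other strand with genes that include the interferon-induced IFIT2, whose mean went from 115 to 1564 reads with hairpin 1 and from 113 to 291 with hairpin 2; its part in the LIPA value was not tested. MAN2B1, the acid α-mannosidase, rose from 3373 to 4250 and from 3299 to 9341 in MOLM13. In U937 it fell from 1917 to 1672 at 6 h (adjusted p 0.041 in the authors' deposited table) and from 2018 to 1178 at 24 h. PPT1, which removes palmitate from proteins, rose 1.43-fold and 1.75-fold with the hairpins and fell by 0.30 at 6 h and by 0.20 at 24 h on the log2 scale in the authors' deposited tables. TPP1, a serine protease that takes tripeptides off amino termini, rose 1.2-fold and 1.5-fold and fell from 1519 to 1100 at 6 h and from 1599 to 1065 at 24 h. Exon bases shared with other annotated genes amount to 21.19% for MAN2B1, 23.37% for PPT1 and 14.38% for TPP1, so their reads could be split with those genes.

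The remaining hydrolases differed by hairpin or time. NEU1, the lysosomal sialidase, rose from 537 to 1088 with hairpin 1 and from 525 to 1045 with hairpin 2. In U937 it fell from 596 to 396 at 6 h (adjusted p 7.6e-05 in the authors' deposited table) and stood at 599 against 627 at 24 h (adjusted p 0.64). GUSB, the β-glucuronidase, rose from 1191 to 1482 with hairpin 1 and was 1165 against 1238 with hairpin 2 (adjusted p 0.56). At 24 h GUSB fell from 2031 to 1261. HEXA, the α subunit of β-hexosaminidase, was 1339 against 1558 with hairpin 1 (adjusted p 0.12 in the authors' deposited table) and rose from 1309 to 2829 with hairpin 2. HEXA shares 16.32% of its exon bases with other annotated genes and IDS 17.39%, so the same limit holds for them. The sulfatase genes ARSA, ARSB and IDS rose with both hairpins, by 1.51-fold, 1.96-fold and 1.45-fold with hairpin 1 and by 2.87-fold, 1.66-fold and 3.06-fold with hairpin 2. None of HEXA, ARSA, ARSB and IDS was called at either time in U937. ACP2, the lysosomal acid phosphatase, was called in no comparison, with log2 fold changes of 0.30, -0.00499, -0.21 and -0.01 in the authors' deposited tables.

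All 8 membrane proteins tested with hairpin 1 rose, as did 8 of the 9 tested with hairpin 2, and in U937 3 rose and 2 fell at 6 h whereas none rose and 5 fell at 24 h, of 8 tested. The shares of well expressed genes given for the hydrolases stand beside these U937 counts too. GPNMB, a glycoprotein of macrophage and melanocyte lysosomes, had a low mean of 72.1 normalised reads in MOLM13 controls and 198 with hairpin 1; in the hairpin 2 table it went from 70.6 to 969. In U937 its level was far higher, and it rose 2.00-fold, from 1415 to 2838 at 6 h, the largest rise of any tested member at that time. At 24 h GPNMB fell from 1491 to 1273 (log2 fold change -0.23, SE 0.0659, adjusted p 0.0021 in the authors' deposited table). GPNMB (chr7:23235967-23275108, plus strand, GENCODE 29) lies 35.1 kb from IGF2BP3 (chr7:23310209-23470467, minus strand), the gene that is targeted. LAMP1 (chr13:113297241-113323672, plus strand), with LAMP2 the major glycoprotein of the lysosomal membrane, rose modestly with the hairpins, from 4759 to 6556 and from 4654 to 5753. In U937 LAMP1 fell from 6465 to 4649 at 6 h and from 6807 to 3219 at 24 h, where it stood at 47.3% of control (adjusted p 8.1e-154 in the authors' deposited table). LAMP2 rose 2.2-fold and 2.73-fold in MOLM13, and in U937 its log2 fold changes were -0.05 (6 h, adjusted p 0.46) and -0.19 (24 h, 1.1e-05) in the authors' deposited tables. NPC1, which exports cholesterol from the lysosome, rose from 781 to 1087 and from 764 to 1026 with the hairpins. It fell at both times in U937, from 2735 to 1671 and from 2881 to 1696. CD63, a tetraspanin of late endosomes, rose from 2882 to 4806 and from 2819 to 7414. CD63 was 1580 against 1602 at 6 h and fell from 1664 to 974 at 24 h. SCARB2, the receptor that carries β-glucocerebrosidase, and LAPTM5, a haematopoietic lysosomal membrane protein, rose with both hairpins and at 6 h. LAPTM5 went from 6435 to 10934, from 6294 to 19362 and, at 6 h, from 6174 to 8005, and at 24 h was 6500 against 6233 (adjusted p 0.23 in the authors' deposited table). SCARB2 rose 2.48-fold, 2.35-fold and 1.21-fold in the same order and had a log2 fold change of 0.01 at 24 h. MCOLN1, the TRPML1 cation channel, rose from 409 to 638 and from 400 to 602 and was called at neither time in U937, where it had 166 against 122 at 6 h and 95.9 against 128 at 24 h. CD68, a mucin-like protein much used as a macrophage marker, had under 10 mean reads in every group. In GENCODE 29 a readthrough gene and a neighbour share 85.79% of CD68 exon bases, so this count is no measure of CD68 expression here.

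Among the 12 V-ATPase genes, 11 rose with each hairpin and none fell, with log2 fold changes from 0.30 to 1.22 with hairpin 1. In U937 2 rose and 1 fell at 6 h and 1 rose and 4 fell at 24 h, of 10 tested. Among all genes whose mean reached 500 reads 33.7% were lower at 24 h, so the 4 of 10 lay near that share. ATP6V1A, the catalytic A subunit of the V1 sector, rose from 1988 to 4617 with hairpin 1 and from 1945 to 2966 with hairpin 2. In U937 it was 1204 against 1043 at 6 h (adjusted p 0.067 in the authors' deposited table) and fell from 1267 to 816 at 24 h. ATP6V1B2, the B subunit beside it in the same ring, rose in all 4 comparisons, from 3503 to 6208, 3427 to 6133, 1735 to 2043 and 1827 to 2652. At 24 h the A and B subunit genes changed in opposite directions, with log2 fold changes of -0.64 (SE 0.0767) and 0.54 (SE 0.0547) in the authors' deposited table. ATP6AP1, an accessory subunit needed for assembly, rose from 3211 to 6774 and from 3140 to 6128 and fell from 2093 to 1718 and from 2203 to 1916. ATP6AP2, the prorenin receptor, rose from 1952 to 3054 and from 1909 to 3799, was 1540 against 1435 at 6 h and fell from 1620 to 1093 at 24 h. ATP6V1E1, a peripheral stalk subunit, rose 1.6-fold and 1.47-fold and fell by 0.30 on the log2 scale at 24 h (adjusted p 0.0086 in the authors' deposited table). ATP6V0D1, of the membrane sector, rose from 1254 to 2081, from 1227 to 1870 and, at 6 h, from 483 to 637, and was 509 against 533 at 24 h. The stalk and regulatory subunits ATP6V1C1, ATP6V1D, ATP6V1G1 and ATP6V1H rose with both hairpins by 1.23-fold to 1.79-fold and were called at neither time in U937. Among them ATP6V1G1 went from 843 to 1238 and from 824 to 1228, and was 513 against 526 at 6 h and 540.2 against 521 at 24 h. ATP6V0A1, the a1 subunit of the membrane sector, rose from 1811 to 2581 and from 1772 to 2621. ATP6V0C, the proteolipid of the proton ring, had means under 20 in every group, and readthrough genes share 72.1% of its exon bases, so its value is uncertain; with hairpin 2 its log2 fold change was 1.87 (adjusted p 0.10 in the authors' deposited table).

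With hairpin 2 the rise was larger than with hairpin 1 for most hydrolase genes and for every activator, and for 1 gene of the pump. For each gene tested in both tables, one deposited log2 fold change was subtracted from the other and the result tested, and the controls that both share cancel in this difference. Larger with hairpin 2 were 19 of 40 members and smaller 1, where 9.01% of all 16267 genes lay higher and 18.2% lower. For this difference no share was taken over well expressed genes, which are called more often. By role, 11 of 17 hydrolases, all 4 activators and cargo genes and 3 of 8 membrane proteins lay higher. SGSH differed by 2.56 on the log2 scale (SE 0.53, adjusted p 1.7e-05), GPNMB by 2.32 (SE 0.33, 3.9e-11), NPC2 by 1.5 (SE 0.30, 6.9e-06) and MAN2B1 by 1.17 (SE 0.12, 1.3e-19). PSAP lay 0.87 higher (SE 0.12, adjusted p 3e-11) and GRN 0.97 higher (SE 0.24, adjusted p 0.00035). Of the 11 V-ATPase genes tested, ATP6AP2 lay higher with hairpin 2 (0.35, 95% interval 0.10 to 0.59) and ATP6V1A lower (-0.61, -0.86 to -0.35). The other 9 were not called, among them ATP6V1B2 (0.01, -0.22 to 0.25) and ATP6AP1 (-0.11, -0.35 to 0.13). These 95% intervals still allow differences up to their limits. IGF2BP3 mRNA itself stood at 40.0% of control with hairpin 1 and 48.8% with hairpin 2, a log2 difference of 0.29 (SE 0.15, adjusted p 0.15) that was not called. Protein was not analysed here.

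Between 6 h and 24 h, part of the members lay lower by the test of the difference and 19 were not called. Of 37 members tested in both U937 tables, 16 lay lower at 24 h and 2 higher, where 12.2% of all 13937 genes lay lower and 10.9% higher. Here too no share was taken over well expressed genes, which are called more often. GPNMB had the largest difference, -1.23 on the log2 scale (SE 0.09, adjusted p 6.1e-38), followed by PSAP at -1.17 (SE 0.06, 2.2e-74) and GRN at -1.02 (SE 0.07, 3e-49). These 3 genes were called higher at 6 h and lower at 24 h. Of the 17 members lower at 24 h, 7 were lower at both times, 3 had been higher at 6 h and 7 had not been called at 6 h: GAA, GUSB, LAMP2, CD63, ATP6V1A, ATP6V1E1 and ATP6AP2. The difference was called for 5 of these 7, GAA at -0.76, CD63 at -0.79, GUSB at -0.65, ATP6AP2 at -0.47 and ATP6V1A at -0.43, and not for LAMP2 (-0.14, 95% interval -0.25 to -0.02, adjusted p 0.074) or ATP6V1E1 (-0.12, -0.43 to 0.18). NPC1 and TPP1, lower at both times, differed by -0.05 (-0.23 to 0.12) and -0.12 (-0.33 to 0.09). Higher at 24 h than at 6 h were NEU1 (0.52, SE 0.16, adjusted p 0.0089) and ATP6V1B2 (0.30, SE 0.09, adjusted p 0.0034). In all, 11 tested members were called at neither time.

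**Figure D4:**
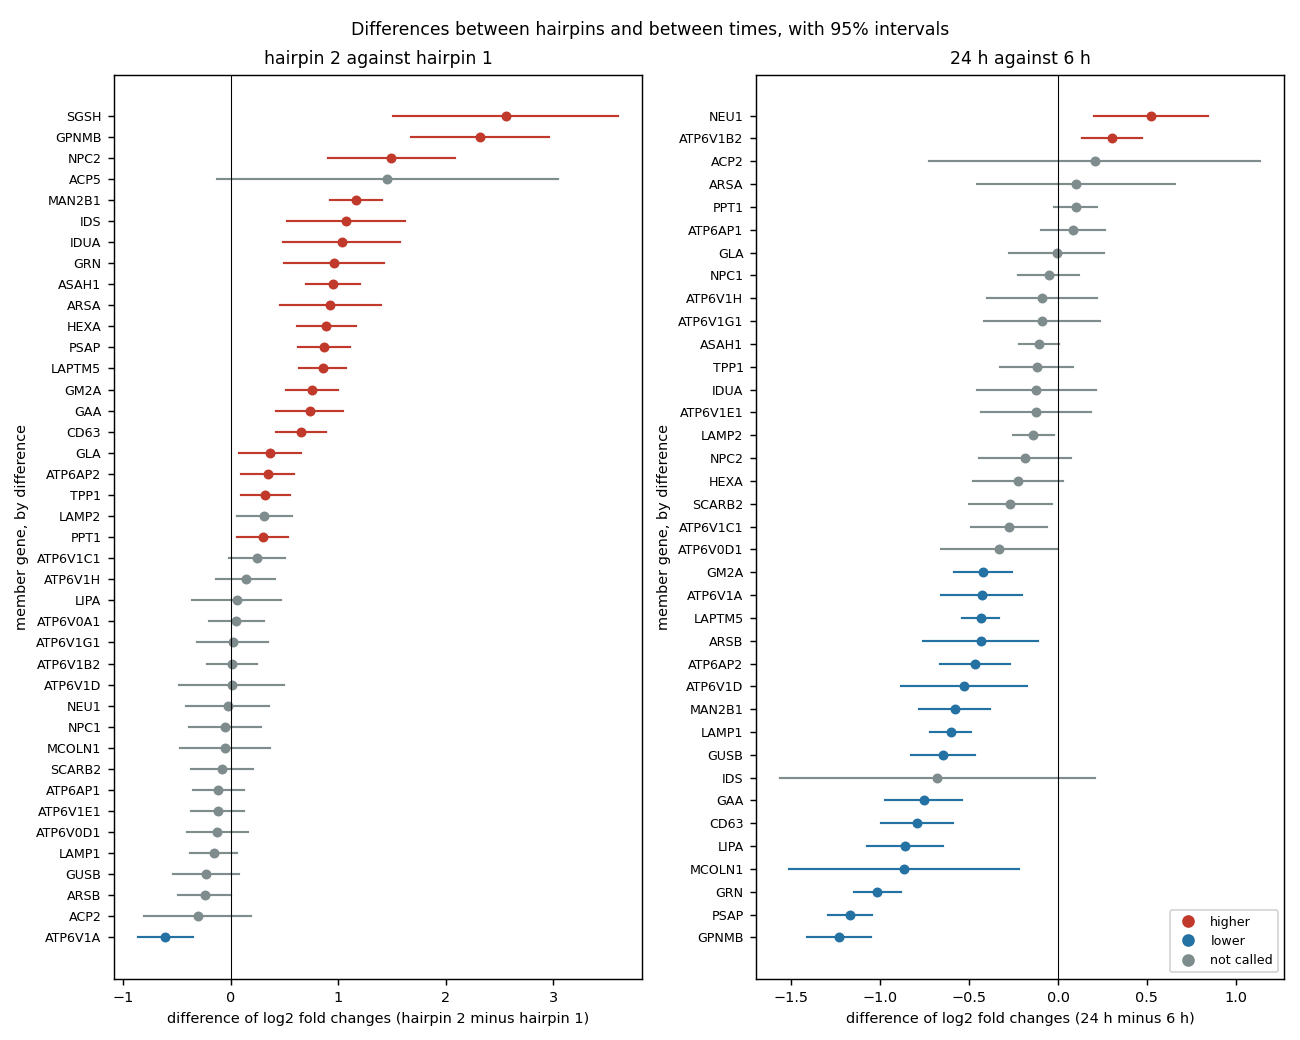
Difference of log2 fold changes, hairpin 2 minus hairpin 1 (left) and 24 h minus 6 h (right), for each member tested in both tables, sorted by difference, with 95% intervals; red is higher, blue lower and grey not called. On the left 19 members lie higher and ATP6V1A lower, and on the right 16 lie lower with GPNMB, PSAP and GRN at the bottom.

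Set side by side, the lines differed in direction for many members. Of the 17 members lower at 24 h in U937, 17 were higher with hairpin 1 in MOLM13 and 16 with hairpin 2, the exception being GUSB. Over all genes lower at 24 h, 19.1% of 2860 tested were higher with hairpin 1 and 18.5% of 2961 with hairpin 2. Nearly every member was higher with the hairpins, so this count follows from that and adds nothing to it. The members higher with both hairpins and at both times were ASAH1, GLA, IDUA, GM2A and ATP6V1B2. Line, method of loss, time and the kind of RNA named in the labels (total RNA for MOLM13, polyadenylated RNA for U937) all change together between the lines and cannot be told apart.

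Control levels per length were compared only as a description, since the lines were normalised separately and no error per library is held. In RPKM (reads scaled by library total and exon length, computed here from the group means), PSAP (154), LAPTM5 (86.8) and GRN (60.1) stood first in MOLM13 and LAPTM5 (156), PSAP (110) and GRN (99.0) in U937. Both lines thus held the same 3 members at the top. LAMP1 stood at 36.6 in MOLM13 and 93.5 in U937, PPT1 at 22.2 and 82.9, and LAMP2 at 27.8 and 90.8. GPNMB stood at 0.528 in MOLM13 and 19.4 in U937 and NPC2 at 2.27 and 25.9. At the bottom of both lines lay ACP5, SGSH, ATP6V0C and CD68, all under 0.3. For CD68 and ATP6V0C, other annotated genes share 85.79% and 72.1% of the exon bases, so these values do not show low expression.

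**Figure D5:**
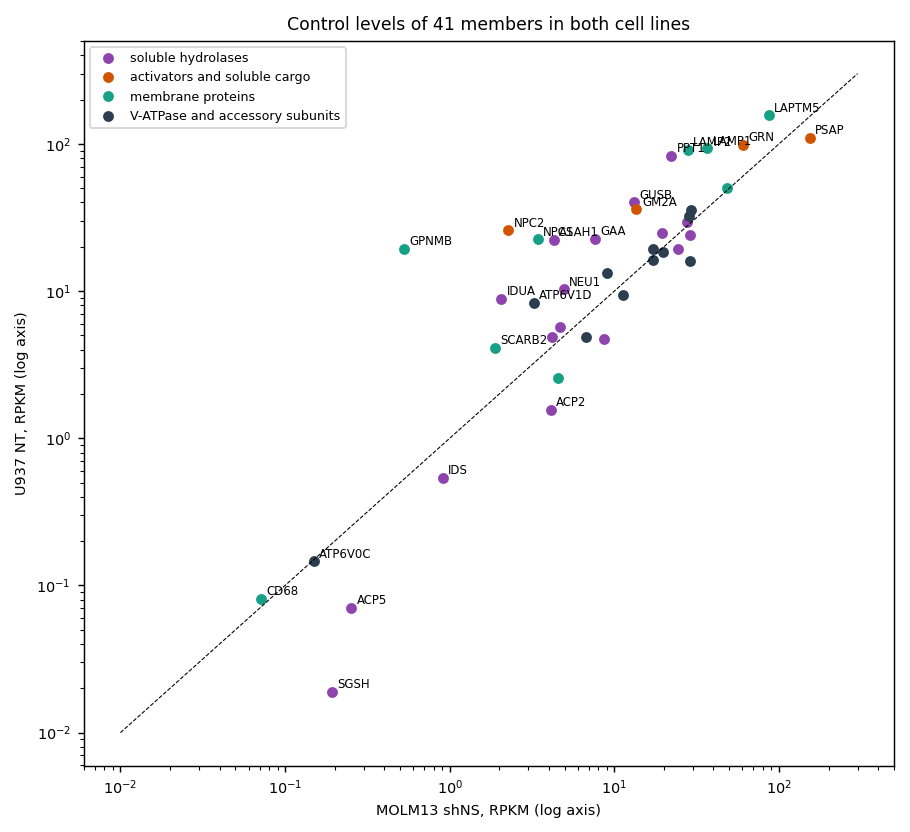
Control level of the 41 members listed in both lines, in RPKM on log axes, MOLM13 shNS against U937 NT; the dashed line marks equal levels, colour gives the role, and names are given for members far from the line or at either end. GPNMB (0.528 and 19.4) and NPC2 (2.27 and 25.9) lie far above the line. CD68 and ATP6V0C share most of their exon bases with other genes, so their points do not measure expression.

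Genes of the same pathway outside the 42 were taken from lists written with earlier results of these data known. Of all tested genes, 17.7% were higher and 16% lower with hairpin 1, and 19.4% and 22.1% with hairpin 2. At 6 h these shares were 10.9% and 12.3%, and at 24 h 18.9% and 19.9%. Above a mean of 500 reads they were 20.5% and 21.6% at 6 h and 31.7% and 33.7% at 24 h. A count near these shares is no result about its list. Other soluble hydrolases gave 21 higher and 2 lower of 26 tested with hairpin 1, 20 and 2 of 26 with hairpin 2, 4 and 7 of 24 at 6 h and 3 and 13 of 24 at 24 h. The cathepsin gene CTSL rose from 74.2 to 723 with hairpin 1 and from 72.6 to 666 with hairpin 2, and CTSD rose from 433 to 5144 with hairpin 2. Some 52.69% of CTSD exon bases are shared with other annotated genes, 41.71% on the same strand. Its level and the size of its rise are therefore uncertain. The fucosidase gene FUCA1 rose from 649 to 2241 with hairpin 1, and at 24 h the heparanase gene HPSE fell from 334 to 194 and the acid nuclease gene DNASE2 from 586 to 352. Other membrane proteins gave 15 higher and 0 lower of 23 with hairpin 1, 15 and 2 with hairpin 2, 5 and 1 of 21 at 6 h and 4 and 2 at 24 h. The transporter genes SLC15A4 (1035 to 2673) and SLC15A3 (391 to 1003) led with hairpin 1. With hairpin 2 the channel gene TPCN1 (1388 to 4694) and SLC15A3 (382 to 1237) led, and TPCN1 was not called with hairpin 1 (1419 against 1454). At 24 h the chloride-proton exchanger gene CLCN7 rose from 2838 to 4345, and 16.1% of its exon bases are shared with other annotated genes. Other V-ATPase genes, several of them tissue-restricted forms, gave 4 higher and 0 lower of 6, 3 and 2 of 6, 0 and 1 of 8 and 0 and 3 of 8. The alternative C subunit gene ATP6V1C2 fell in U937 from 3214 to 1977 at 6 h and from 3384 to 1306 at 24 h. Some 29.92% of its exon bases are shared on the other strand with genes that include PDIA6. Its reads could therefore be those of a neighbour, and the fall cannot be assigned to ATP6V1C2 here.

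The mannose 6-phosphate sorting genes gave 6 higher of 6 tested with hairpin 1, 5 of 6 with hairpin 2, 1 lower of 5 at 6 h and 3 lower of 5 at 24 h, and no calls the other way. The shares of all tested genes given above apply to the lists of this paragraph too. IGF2R, the larger receptor, rose from 18504 to 48043 with hairpin 2 and fell from 9961 to 6125 at 6 h and from 10490 to 5393 at 24 h. SORT1, a sorting receptor that also binds prosaposin and progranulin, rose 2.15-fold with hairpin 1 and 3.41-fold with hairpin 2. M6PR, the smaller receptor, fell from 3052 to 2100 at 24 h. Some 29.26% of its exon bases are shared with PHC1 on the other strand, so its reads could be split with that gene. Of the 4 MiT/TFE genes, 3 were higher with hairpin 1 and 4 with hairpin 2. At 6 h 0 of 4 were called by the authors' DESeq2 test, with 1 at an unadjusted p under 0.05. At 24 h TFE3 (502 to 878) and TFEB (2425 to 3248) rose, and 2 of 4 genes are too few to set against the shares above. Any link between the RNA of these factors and the lysosomal members was not tested. Ragulator, Rag and FLCN genes, which couple lysosomes to mTORC1, gave 6 higher and 0 lower of 12 with hairpin 1, 7 and 1 with hairpin 2, 2 and 0 of 11 at 6 h and 3 and 1 at 24 h. RRAGD rose from 199 to 546 and from 195 to 831 with the hairpins.

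Markers of myeloid cells moved as well, and their part in the lysosomal result was not tested. The shares of all tested genes given above for the other lists apply to the marker counts too. Of 10 tested in MOLM13, 5 were higher and 2 lower with hairpin 1 and 6 and 1 with hairpin 2, and the summed level went from 40891 to 161085 and from 40004 to 259763, most of it LYZ, the lysozyme gene. Some 33.96% of LYZ exon bases are shared with another annotated gene on the other strand, so its reads could be split with that gene. MPO fell with both hairpins. In U937, 2 were higher and 1 lower of 8 at 6 h and 6 and 1 of 8 at 24 h, with sums of 8813 and 10922 and of 9284 and 12518. Macrophage markers had low sums, from 69.6 to 150 with hairpin 1 and from 68.3 to 309 with hairpin 2, with 1 of 3 and 3 of 4 tested higher, and MARCO rose at 6 h (70.9 to 162) and fell at 24 h (74.7 to 33.6). Of the 18 lymphoid, erythroid and platelet markers, 8 and 7 were listed in the hairpin tables and 9 and 11 in the U937 tables, with sums of 4146 and 4785, 4054 and 4142, 394 and 293, and 415 and 255. PAX5 and NCAM1 made up most of those sums, CD3E has no value here, and the globin gene HBB had a control mean of 1.23 in the 24 h table.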

How the data were processed

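The tools named in the submitters' processing notes are cutadapt 4.1, HISAT2 2.1.1, HTSeq 2.0.2 and DESeq2, with the build hg38; the annotation release and any use of strand are not given in the sources used here. The signal in the deposited tables is the base mean, a mean normalised read count across all 4 libraries compared. The log2 fold changes (treated over control) and the adjusted p-value are as the authors deposited them. The labels name total RNA for MOLM13 and mRNA for U937, whereas the labels' protocol describes mRNA capture for all. The tables hold no value per library, so the planned count model could not be made, and the authors' DESeq2 statistics were used, as planned for that case, with a call at an adjusted p under 0.05. Nothing says that the 2 libraries of a group came from separate cultures, so p-values measure the spread between these libraries, which may be technical.

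Group means were computed from base mean and fold change. The Benjamini-Hochberg adjustment was undone to give each p-value, and from it an SE, taking the test as a Wald test. Tied adjusted values only bound p, so SEs of weakly changed genes are upper estimates; where the fold change was under 1 SE, the SE was set to at least the median of 101 genes of like count. An adjusted p listed as 0 (PSAP with hairpin 2) gives an upper limit. This handling of SEs was chosen after the tables were seen. Differences between hairpins and between times were set against the square root of both squared SEs added together and adjusted over all genes tested in both tables; the shared controls make that SE too large. The method was tested on simulated tables in which many genes change, as here. Their errors followed the same normal Wald model that the recovery assumes, so the fit of the deposited values to it was not checked. In a first simulation with an unchanged second table the recovered SEs were inflated and the test missed more of the changes made. No molecular identifiers are named, so reads may repeat molecules.

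Members and lists were chosen with earlier results of these data known, and the mean count of 500 was chosen after seeing the data. Within each role group and comparison the named members were the 3 called with the largest change, the smallest called in each direction, those called in opposite directions and those called in all 4 comparisons; other members are named for completeness, and from other lists up to 2 called genes, not all of which are reported. SORT1, RRAGD, SLC15A4, MPO, LYZ and other list genes follow that rule; IFIT2, CD14, SPI1, CEBPA, CD33, HBB and CD3E were named after their values were seen. Coordinates, exon lengths and overlaps came from GENCODE 29, in which 95.5% to 95.9% of gene identifiers matched. Python 3.11.15, numpy 2.4.6, pandas 2.3.3 and scipy 1.17.1 were used.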

Additional observations from a re-analysis of the deposited data

Results flagged for a closer look

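Between 6 h and 24 h of 5-Ph-IAA, 18 of the 37 members tested at both times differed by the test of the difference itself, and each is given as the log2 fold change at 24 h minus that at 6 h. Lower at 24 h were GPNMB (-1.23), PSAP (-1.17), GRN (-1.02), MCOLN1 (-0.87), LIPA (-0.86), CD63 (-0.79), GAA (-0.76) and GUSB (-0.65). Smaller decreases were found for LAMP1 (-0.6), MAN2B1 (-0.58), ATP6V1D (-0.53), ATP6AP2 (-0.47), ARSB (-0.44), LAPTM5 (-0.44), ATP6V1A (-0.43) and GM2A (-0.42). ATP6V1B2 (0.3) and NEU1 (0.52) were higher at 24 h. MCOLN1, ARSB and ATP6V1D were called at neither time against NT, and their differences had adjusted p-values of 0.039, 0.038 and 0.018. Both times were compared with the same NT libraries, and the causes were not tested.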

How the results depend on the processing

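With either hairpin, 0 members were lower under every alternative tried, and the count called higher stayed within 1.5 times of 38 except for hairpin 1 under Bonferroni adjustment (25 called, 25 higher). The median log2 fold change with hairpin 2 was 1.17 when centred on genes whose mean reached 500 reads, a centring added after seeing the data. At 6 h a fold of at least 1.5 left 3 called, 1 higher and 2 lower, and Bonferroni left 9, 5 higher and 4 lower. At 24 h a fold of at least 1.5 left 11 called, 0 higher and 11 lower; 3 members stayed higher at an adjusted p under 0.01 and 2 under Bonferroni. The other settings (adjusted p under 0.01, a mean of 50 reads, centring on the median of all tested genes) kept each of the remaining counts within 1.5 times. Of 1163 member values across alternatives, 1057 kept direction and call, 97 lost the call, 4 gained it and 5 changed sign. The sign changes were of members that were not called: ACP2 with that centring (0.12 with hairpin 2, 0.0014 at 24 h), and NEU1 (0.037), MCOLN1 (0.013) and NPC1 (0.013) in the difference between hairpins centred on its median. The counts of members that differed between hairpins and between times moved by less than 1.5 times; LAMP2 between hairpins and ATP6V1C1 between times gained a call among genes whose mean reached 50 reads. No paired analysis was possible because the tables hold no value per library; for the same reason leaving out each replicate was not run. Few reads limit CD68 and ATP6V0C, tested with hairpin 2 alone, where the SEs were 1.25 and 0.94 on the log2 scale. Other annotated genes share 85.79% and 72.1% of their exon bases, and the part of this in the low counts was not tested.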
